A study of Rattus norvegicus with 31 samples.

Results

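The prostaglandin synthase genes followed here are Ptgs1, Ptgs2, Ptgds, Hpgds, Ptges and Ptgis, 6 genes of the 14217 that the platform annotation names singly on the rat array. Their probe sets were found by gene symbol. Their 8 probe sets were described in testes of irradiated LBNF1 rats, and a gene with more than 1 probe set is represented by the one with the highest mean over the 31 arrays. All rats were 25 to 27 weeks old and all had 6 Gy of radiation to the lower abdomen, so no group is free of irradiation. In 6 arrays the rats had hormone ablation plus estradiol, given with a GnRH antagonist (a blocker of gonadotropin-releasing hormone) and an androgen receptor antagonist. In 11 arrays they had the ablation alone, the GnRH antagonist together with flutamide, a drug that blocks the androgen receptor. In 14 arrays they had sham treatment. The estradiol label also speaks of FSH supplementation (follicle-stimulating hormone), and doses and durations are not given in the sources used here. Of the sham arrays 10 are described as control testes and 4 as irradiated ones, although the titles of all 14 say irradiated.

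Prostaglandins are short-lived lipid signals made from arachidonic acid, which phospholipases release from membranes. The cyclooxygenases encoded by Ptgs1 and Ptgs2 turn the acid into a common unstable intermediate, prostaglandin H, and terminal synthases then shape it into the separate products. Ptgds and Hpgds encode unrelated enzymes that both make prostaglandin D, Ptges encodes an enzyme that makes prostaglandin E, and Ptgis encodes prostacyclin synthase. Ptgds, the lipocalin type, is a secreted protein known from the brain and the male genital tract, and in mice it has been found in Leydig and Sertoli cells.

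Values are MAS5 signals, the output of an Affymetrix algorithm that gives 1 number per probe set and array, on a logarithmic scale read here as log2. The 40th percentile of each array, which lay between -1.93 and -1.75, is called the filter level, and a probe set was tested where it exceeded that level on at least 6 arrays. Sertoli cell markers (Wt1, Clu, Cldn11, Dhh and Gata4) averaged between 3.04 and 3.90 on every array, well above it. On 4 arrays, ablation 4 and 9 and sham 6 and 7, the mean of 10 meiotic and postmeiotic germ cell genes lay above the filter level, and ablation 2 and 9 and sham 1 and 13 lay at the ends of the first principal component. Removing either set of arrays left 2, 0 and 2 members called in the 3 comparisons. The estradiol arrays are all of a newer deposit, so effects of estradiol and of deposit cannot be told apart, while the ablation and sham arrays share an older one. In whole testis RNA, fewer cells of a type and less RNA per cell cannot be told apart.

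Ptgds and Ptgis were lower with ablation, and the other tested synthase genes did not pass. With limma across all 21269 probe sets that passed the filter, 2 of the 6 genes were called in ablation against sham, both lower (22.1% of all 11379 genes tested were called, 12.8% as lower). Between the estradiol and the ablation group limma called 0 of the 6 (3.46% of genes tested were called, 2.73% as lower). Of them 1, Ptgds, had an unadjusted limma p under 0.05, as had 3521 of the 21269 probe sets. In estradiol plus ablation against sham the same 2 genes were called, both lower (17.2% of genes tested were called, 11.9% as lower). Over all probe sets, 19.4% were called with ablation (9.15% higher, 10.3% lower), 5.52% between the estradiol and the ablation group (0.592% higher, 4.92% lower) and 14.5% between the estradiol and the sham group (4.15% higher, 10.4% lower). Of the 6 genes, 5 passed the filter and Ptgs2 did not. Ptgds exceeded the filter level mainly on sham arrays, so it entered the test through the group in which it is high. Without any filter its change with ablation had an adjusted p of 5.07e-05.

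**Figure D1:**
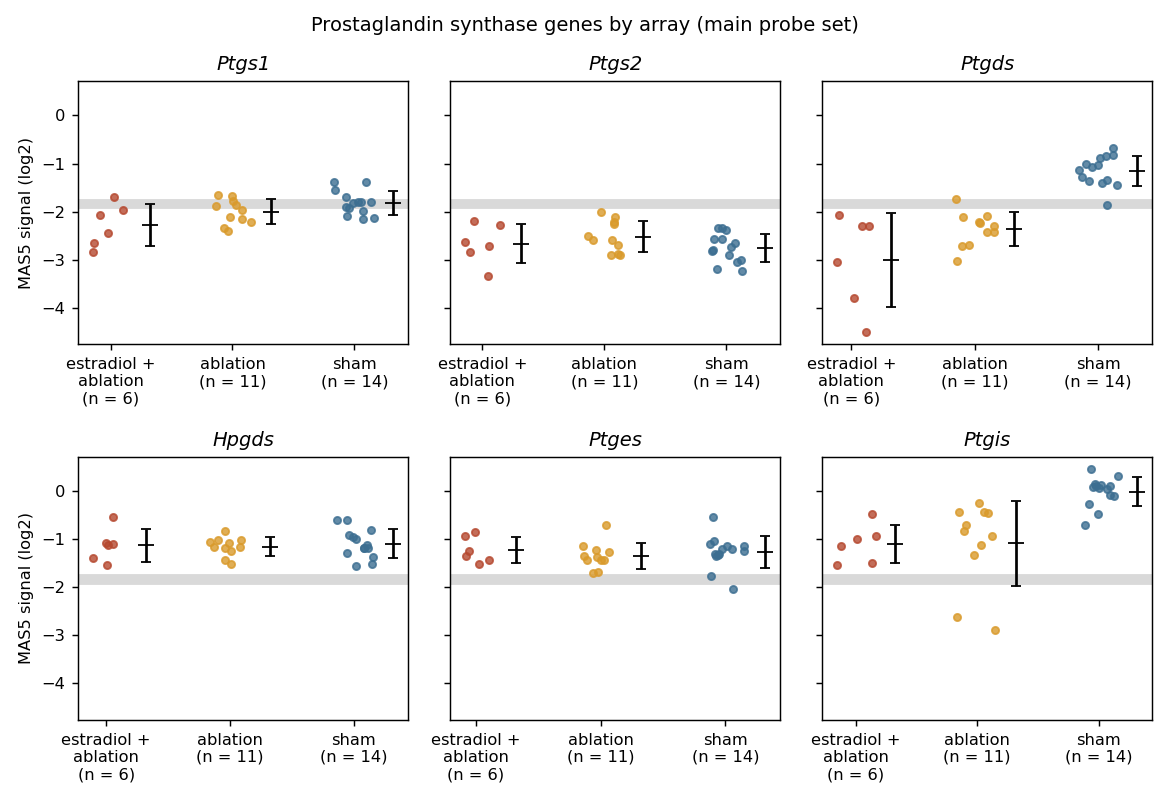
MAS5 signal (log2, vertical axis) of the main probe set of each prostaglandin synthase gene in estradiol plus ablation, ablation and sham arrays. Each dot is an array, the bars beside the dots show mean ± SD, and the grey band is the range of the filter levels. All 6 estradiol arrays lie below every sham array for Ptgds, and ablation arrays 4 and 6 lie far below the rest of their group for Ptgis.

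The cyclooxygenase genes were close to or below the filter level. Ptgs1, the form that most tissues make steadily, ran from -2.85 over a median of -2.26 to -1.69 in estradiol arrays, from -2.39 over -1.97 to -1.65 in ablation arrays and from -2.16 over -1.81 to -1.38 in sham arrays. The 3 groups overlapped, and 1 of 6 estradiol, 2 of 11 ablation and 6 of 14 sham arrays exceeded the filter level. The change of Ptgs1 with ablation was -0.19 ± 0.14 (log2, SE), with a 95% interval of -0.48 to 0.10 and an adjusted p of 0.392. Estradiol plus ablation against sham gave -0.47 ± 0.17 (95% interval -0.82 to -0.12), which did not pass after adjustment (adjusted p = 0.0654). Without estradiol array 4 it was -0.58 and passed (adjusted p = 0.0242), and it also passed in a fit without a variance trend (adjusted p = 0.0263). It did not pass in 12 of 13 alternative fits (limma adjusted p up to 0.285). Of 20 fits with a single array left out, 1 passed. A second probe set of Ptgs1 was above the filter level on 0 of 31 arrays.

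Ptgs2, the inducible cyclooxygenase, was above the filter level on 0 of 31 arrays. Its values lay between -3.33 and -2.20 in estradiol arrays, between -2.91 and -2.02 in ablation arrays and between -3.23 and -2.34 in sham arrays. Fitted without the filter, over 31042 probe sets, its change with ablation was 0.24 ± 0.17 (adjusted p = 0.418), and its change with estradiol against ablation was -0.15 ± 0.21 (adjusted p = 0.826). The values do not show whether Ptgs2 was transcribed at a low level in any group.

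Ptgds was lower in both hormone-ablated groups than in the sham group, where alone it lay above the filter level on every array. The 250 bases before its transcription start are shown because its calls are among the results that follow. In RefSeq's table for build GRCr8 they lie at chr3:28682979-28683228 on the minus strand, written 5′ to 3′ with motif matches in capitals.
Ptgds: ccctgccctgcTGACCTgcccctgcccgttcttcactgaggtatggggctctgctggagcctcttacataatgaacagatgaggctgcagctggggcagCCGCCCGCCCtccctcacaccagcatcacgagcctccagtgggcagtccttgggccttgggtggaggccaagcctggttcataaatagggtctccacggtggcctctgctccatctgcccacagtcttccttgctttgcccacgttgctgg
The first capitals are the nuclear receptor half-site AGGTCA, read on the opposite strand from 239 to 234 bases before the start, a motif that 14.1% of 33469 rat promoter windows of this length hold. The second run is a pair of overlapping matches to the GC box GGGCGG, also on the opposite strand, which 30.5% of the windows hold. Of the other motifs searched on both strands, the palindromic estrogen response element (GGTCA, any 3 bases, then TGACC, held by 0.0239% of windows), CAAGGTCA, which contains the half-site (1.33%), and the androgen and glucocorticoid receptor half-site AGAACA (17.5%) had no match in this window. The same held for TATAAA (12.9%), CCAAT (34.0%), CACGTG (5.59%), TGANTCA (6.34%) and TGACG (18.2%). The table held 4 of the 6 genes, and the windows of Ptgs1, Ptgs2 and Ptges had 0 matches to AGGTCA, while Ptges had 1 to AGAACA. A match is a description of letters and not a bound site.

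Ptgds ran from -4.51 over a median of -2.67 to -2.07 in estradiol arrays, from -3.03 over -2.30 to -1.73 in ablation arrays and from -1.86 over -1.10 to -0.68 in sham arrays. It exceeded the filter level on 0 of 6 estradiol, 1 of 11 ablation and 14 of 14 sham arrays. Sham array 7, at -1.86, was the single sham array within the ablation range, and 10 of 11 ablation arrays lay below every sham array. In 2.43% of genes tested these groups did not overlap at all, which was not so for Ptgds. The share of genes with a partial separation like this was not counted. The group means were -3.0 ± 0.98 (SD, n = 6) with estradiol, -2.36 ± 0.36 (SD, n = 11) with ablation and -1.16 ± 0.32 (SD, n = 14) with sham.

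With ablation Ptgds fell by 1.21 ± 0.21 on the log2 scale against sham, or 2.31-fold (95% interval of the change -1.62 to -0.79, adjusted p = 3.19e-05). With estradiol plus ablation it was 3.59-fold lower than with sham (-1.84 ± 0.25, adjusted p = 6.67e-07), and the groups did not overlap, as in 3.71% of genes tested. Of estradiol against ablation the change was -0.64 ± 0.26 (95% interval -1.16 to -0.11, adjusted p = 0.174), which did not pass. It was -0.33 without estradiol array 5 (adjusted p = 0.591) and -0.82 without estradiol array 4, and passed in neither fit. In that comparison estradiol arrays 1, 3 and 4 lay within the ablation range at -2.29, -2.29 and -2.07, and arrays 2, 5 and 6 lay below it at -3.79, -4.51 and -3.05. Most of these values are below the filter level. With each value below that level raised to it, the change with ablation was -0.66, the estradiol group stood -0.06 from the ablation group and -0.72 from the sham group, and both calls against sham remained. In order of level, the sham group was highest, and the estradiol and ablation groups did not differ beyond the test's threshold.

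Hpgds, the hematopoietic prostaglandin D synthase known from mast cells and antigen-presenting cells, was above the filter level on all 31 arrays. It ran from -1.54 over -1.11 to -0.54 in estradiol arrays, from -1.52 over -1.16 to -0.83 in ablation arrays and from -1.57 over -1.14 to -0.59 in sham arrays. The groups overlapped almost fully. Its change with ablation was -0.06 ± 0.12 (95% interval -0.30 to 0.17, adjusted p = 0.761), that of estradiol plus ablation against ablation 0.03 ± 0.15 (-0.27 to 0.32, adjusted p = 0.958) and that of estradiol plus ablation against sham -0.04 ± 0.14 (-0.32 to 0.25, adjusted p = 0.91). Hpgds and Ptgds, whose products are the same prostaglandin, thus had intervals of the change with ablation that did not overlap. A test of the difference between the genes was not run.

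Ptges, the inducible microsomal prostaglandin E synthase, did not pass in any comparison by either of its probe sets. The main probe set ran from -1.51 over -1.29 to -0.86 in estradiol arrays, from -1.71 over -1.38 to -0.71 in ablation arrays and from -2.04 over -1.23 to -0.54 in sham arrays. It was above the filter level on all arrays but sham 14. Its change with ablation was -0.07 ± 0.13 (95% interval -0.33 to 0.18, adjusted p = 0.747), and that of estradiol plus ablation against ablation was 0.12 ± 0.16 (95% interval -0.20 to 0.45, adjusted p = 0.771). The second probe set had -0.49 ± 0.22 with ablation (95% interval -0.93 to -0.05, adjusted p = 0.115) and ranged widely in that group, from -3.78 to -1.15 against -1.86 to -1.35 in sham arrays. For estradiol plus ablation against sham the 2 probe sets had opposite signs, 0.05 for the main one and -0.35 for the second.

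Ptgis, which makes prostacyclin in vessel walls and smooth muscle, was lower in both hormone-ablated groups. It ran from -1.54 over a median of -1.08 to -0.48 in estradiol arrays, from -2.88 over -0.82 to -0.24 in ablation arrays and from -0.70 over 0.08 to 0.47 in sham arrays. Ablation arrays 4 and 6, at -2.88 and -2.62, lay below the filter level, the other 9 at -1.32 or higher. Of the ablation arrays 7 of 11, and of the estradiol arrays 5 of 6, lay below every sham array. For such partial separations the share over all genes was not counted. The group means were -1.10 ± 0.39 (SD, n = 6) with estradiol, -1.09 ± 0.89 (SD, n = 11) with ablation and -0.01 ± 0.30 (SD, n = 14) with sham.

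The change of Ptgis with ablation was -1.08 ± 0.22, or 2.11-fold lower (95% interval -1.52 to -0.64, adjusted p = 0.000363). It stayed between -1.16 and -0.90 with any single array left out, and robust regression, which gives far arrays less weight, gave -0.85 (adjusted p = 0.000142). Estradiol plus ablation was 2.13-fold lower than sham (-1.09 ± 0.26, adjusted p = 0.00321). With the 4 sham arrays described as irradiated as the only sham arrays that change was -1.21 and no longer passed (adjusted p = 0.0511). Estradiol plus ablation against ablation gave -0.01 ± 0.27 (95% interval -0.57 to 0.54, adjusted p = 0.99). Changes of a size within that interval remain compatible with these arrays.

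**Figure D2:**
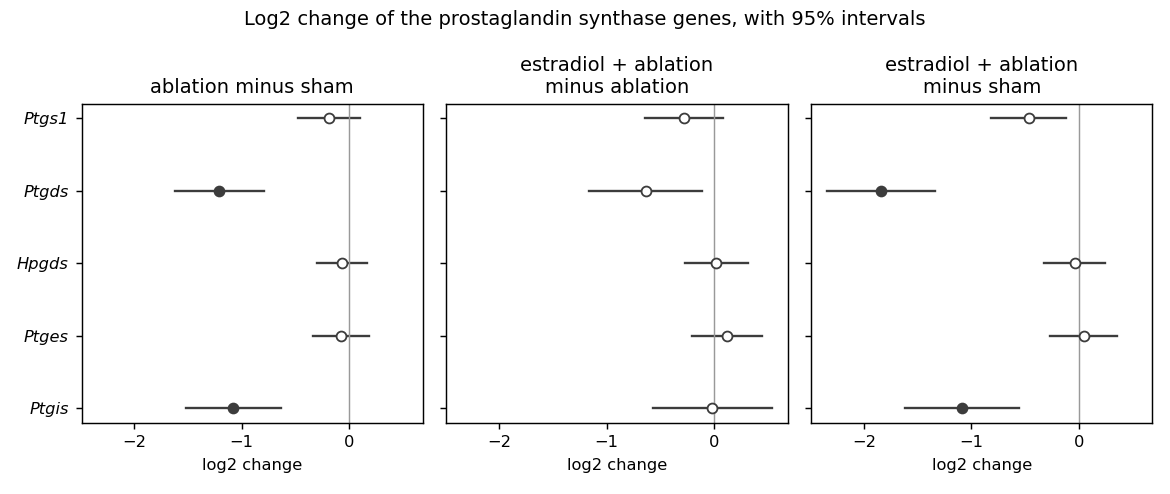
Log2 change (horizontal axis) of the 5 prostaglandin synthase genes that were tested, with 1 panel for each pair of treatment groups. Points are limma estimates, lines 95% intervals, and filled points passed an adjusted p of 0.05. Ptgds and Ptgis are filled in both comparisons with sham, and no gene is filled between estradiol plus ablation and ablation.

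Ptgds and Ptgis differed in how their arrays spread. With deviations from the group means, which leave out the treatment difference, Ptgds and Ptgis had a Pearson correlation of 0.17 over the 31 arrays, against 0.62 with the treatment difference included. The arrays with the lowest Ptgds (estradiol 5 and 2) and those with the lowest Ptgis (ablation 4 and 6) were not the same ones. Ptgs1 and Ptges had the highest correlation of deviations among the 5 tested members, at 0.41. These correlations describe these arrays, which share a platform and within each deposit their processing.

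Among genes before, beside and after the synthases, more were called lower than higher with ablation, and 14 of the 28 tested did not pass. Of 38 further genes of prostanoid and eicosanoid metabolism, 28 passed the filter, and with ablation 12 were lower and 2 higher (median change -0.27, against 0.00 over all genes tested, of which 12.8% were lower and 9.24% higher). Among phospholipases that release arachidonic acid, 3 of 8 were lower and 1 was higher. Pla2g4a, the cytosolic phospholipase that prefers arachidonic acid, was 1.38-fold lower (-0.46 ± 0.09), with an ablation mean of -0.77 and a sham mean of -0.30. The secreted Pla2g5 was 1.42-fold lower (-0.51 ± 0.08), and Pla2g12a 2.36-fold lower (-1.24 ± 0.28). Pla2g12a exceeded the filter level on 6 of 11 ablation and 14 of 14 sham arrays. With values below that level raised to it, the change of Pla2g12a was -1.04. Pla2g4b, another cytosolic phospholipase, was 1.65-fold higher (0.72 ± 0.16, adjusted p = 0.00107).

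Pla2g4b was the 1 gene of these 28 that passed in estradiol plus ablation against ablation (3.46% of genes tested passed). It was 2.02-fold lower with estradiol (-1.01 ± 0.20, adjusted p = 0.000992). Its values ran from -1.69 over -0.95 to -0.56 in estradiol arrays, from -0.48 over -0.11 to 0.50 in ablation arrays and from -1.85 over -0.75 to -0.14 in sham arrays. The estradiol and ablation arrays did not overlap, as in 0.738% of genes tested, and every estradiol array lay within the sham range. The ablation mean of -0.02 lay above both the sham mean of -0.74 and the estradiol mean of -1.03. The same ablation arrays stand in both comparisons, so the 2 calls are not independent.

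Of 6 transport and inactivation genes 3 were lower and 1 higher with ablation (12.8% and 9.24% of all genes tested). Hpgd, the dehydrogenase that starts the breakdown of prostaglandins, was 1.32-fold lower (-0.40 ± 0.11, adjusted p = 0.00687). The reductases Ptgr2 and Ptgr3, which act on the products of that step, were 1.67-fold and 1.40-fold lower, while Ptgr1, a further reductase of such products, was 1.31-fold higher (0.39 ± 0.10, adjusted p = 0.00445). Ptgr2 ran from -0.70 to -0.21 in estradiol arrays and from -0.90 to -0.02 in ablation arrays, against -0.08 to 0.81 in sham arrays. In estradiol plus ablation against sham Ptgr2, Ptgr3 and Slco2a1, a prostaglandin uptake carrier, were lower (-0.75, -0.57 and -0.30). The call of Slco2a1 (adjusted p = 0.0419) was lost in 9 of 13 alternative fits.

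Other terminal synthases had 1 of 6 called with ablation, near the 22.1% of all genes tested. Ptges2, Ptges3, Cbr1, Akr1b1 and Tbxas1, which make prostaglandin E, prostaglandin F or thromboxane, had changes with ablation between -0.14 and 0.17. Prxl2b, a prostaglandin F synthase, was 1.59-fold lower (-0.67 ± 0.23, adjusted p = 0.0369), a call lost in 6 of 13 alternative fits. Of 7 prostanoid receptor genes with a probe set, Ptger3 and Ptgfr passed the filter, with changes with ablation of 0.04 ± 0.23 and -0.29 ± 0.20, and neither was called in any comparison. The receptors Ptger1, Ptger2, Ptger4, Ptgdr2 and Tbxa2r did not pass the filter.

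The leukotriene and lipoxygenase branch uses the same arachidonic acid. Of its list 5 of 6 tested genes were lower with ablation and 0 higher (12.8% and 9.24% of all genes tested). Ephx2, a hydrolase of fatty acid epoxides that is on the list but part of neither pathway, was 1.70-fold lower (-0.77 ± 0.11, adjusted p = 7.7e-07). Alox5, which starts leukotriene synthesis, was 1.56-fold lower (-0.65 ± 0.16), and Lta4h and Ltc4s, which make leukotrienes from its product, were 1.26-fold and 1.23-fold lower (the call of Ltc4s, adjusted p = 0.0364, was lost in 6 of 13 alternative fits). Alox5ap, the protein that helps Alox5 reach its substrate, was the fifth (-0.85 ± 0.29, adjusted p = 0.0389). It was above the filter level on 2 of 11 ablation and 7 of 14 sham arrays, and passed in only 5 of the 13 alternative fits. Alox5 was above the filter level on 2 of 6 estradiol, 5 of 11 ablation and 14 of 14 sham arrays. With the 4 sham arrays described as irradiated alone, 8 of the 28 pathway genes were called in place of 14, and Alox5, Alox5ap, Ltc4s, Pla2g12a, Prxl2b and Ptgr1 no longer passed. In estradiol plus ablation against sham, 8 of 28 were lower and 0 higher (11.9% and 5.28% of genes tested), while 3 of the alternative fits called 1 or 2 genes as higher.

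**Figure D3:**
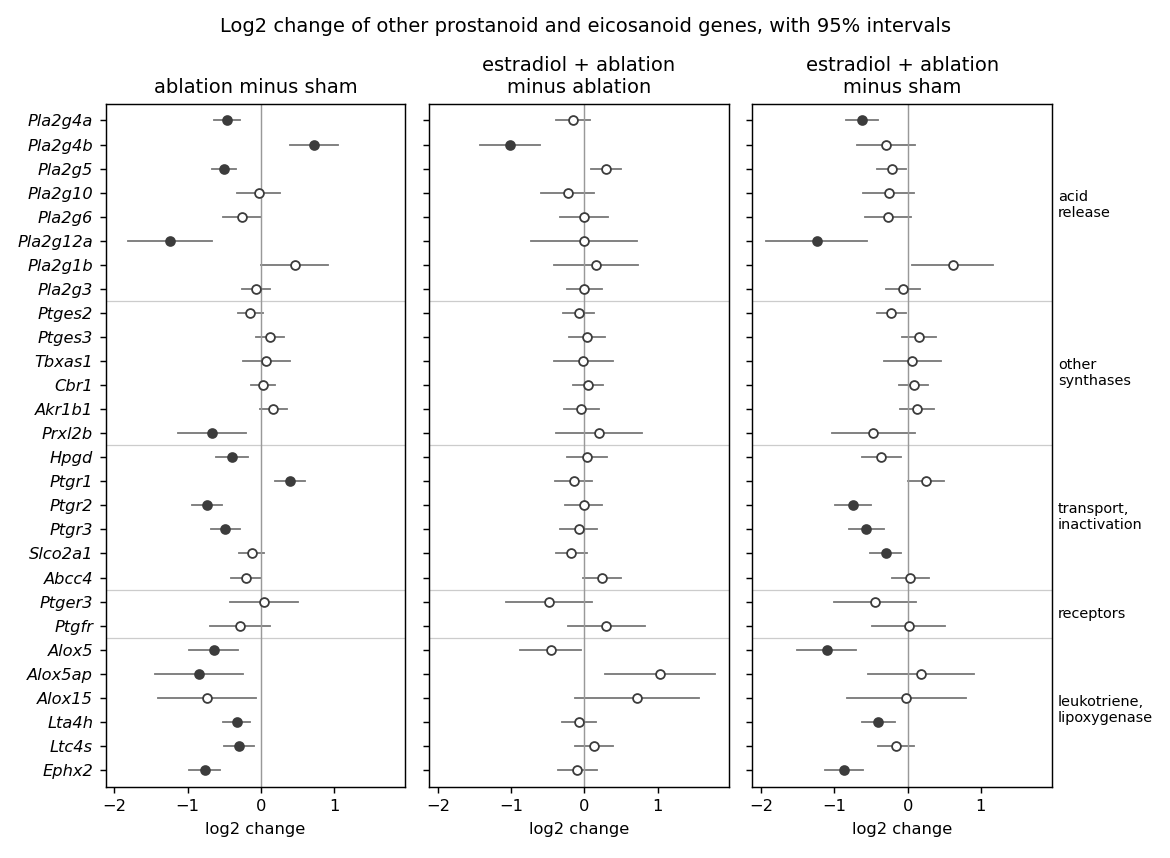
Log2 change (horizontal axis) of the 28 further prostanoid and eicosanoid genes that were tested, grouped by role, in the 3 comparisons. Points are limma estimates, lines 95% intervals, and filled points passed an adjusted p of 0.05. With ablation 14 points are filled, 12 of them left of 0, and Pla2g4b is the one filled point between estradiol plus ablation and ablation.

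Markers of several cell types moved with the same treatments, and their part in the changes of Ptgds, Ptgis and the pathway was not tested. Beside the counts below, 12.8% of all genes tested were lower with ablation and 9.24% higher. With ablation the Leydig cell list had 6 lower and 2 higher genes of 9, and the mean of the list lay between 0.47 and 0.97 in estradiol arrays and between 0.79 and 1.42 in ablation arrays, against 2.22 to 2.96 in sham arrays. Of 8 macrophage markers 7 were lower with ablation, with list means of -0.05 to 0.47 in ablation arrays against 0.28 to 1.11 in sham arrays. Of 5 peritubular myoid markers 3 were lower (list means 0.30 to 1.05 with ablation, 0.72 to 1.41 with sham), and of 5 endothelial markers 2 were lower (-0.94 to -0.48 with ablation, -0.83 to -0.24 with sham). On ablation arrays 4 and 6, where Ptgis was lowest, the myoid list means were 0.90 and 0.49 and the endothelial ones -0.87 and -0.86. The Sertoli cell list had 2 higher genes of 5, and Amh and Rhox5 did not pass the filter. The 3 mast cell markers tested had a median change of -0.19 and did not pass, and Tpsab1, Cma1, Ms4a2 and Fcer1a did not pass the filter. All 4 tested markers of undifferentiated spermatogonia were higher with ablation. Of 6 meiotic and postmeiotic markers tested, Sycp3 was higher with ablation (0.97 ± 0.29, adjusted p = 0.0146), a call lost in 3 of 12 alternative fits. Prm1 was called lower in the estradiol group than in the ablation group. Its change there lay between -5.10 and -4.13 with single arrays left out, and the call was lost in 8 of 17 such fits. Of the epididymis list 2 genes were tested, and Cst8, known from the epididymis and from germ cells, was lower in the estradiol group than in the ablation group (-0.54 ± 0.12, adjusted p = 0.00467) and than in the sham group (-0.40 ± 0.12, adjusted p = 0.0188). The means of these 2 genes lay between -2.38 and -1.10 in estradiol arrays, between -2.22 and -0.94 in ablation arrays and between -1.64 and -0.60 in sham arrays. The 2 red blood cell genes tested did not pass in any comparison.

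The gene most like Ptgds over the 31 arrays was Vtn, which encodes the adhesive plasma and matrix protein vitronectin, with a Pearson correlation of 0.92 among 11265 candidate genes. The correlation of their deviations from the group means was 0.70. Without the 2 arrays farthest from the Ptgds median (estradiol 2 and 5) the correlation over arrays, treatment difference included, was 0.90. Estradiol array 5 was the lowest of the 31 for both genes (Ptgds -4.51, Vtn -3.07). The correlation of deviations without that array was not computed. The changes of Vtn were -1.35 with ablation against sham and -0.81 with estradiol plus ablation against ablation, beside -1.21 and -0.64 for Ptgds. Next came Cyp51, an enzyme of cholesterol synthesis (0.87), Zfp189, a zinc finger protein (0.87), Rarres2, which encodes the adipokine chemerin (0.86), and Mmp2, a matrix protease (0.85). Their deviations correlated less, at 0.45 to 0.54. Sham array 7, the lowest sham array for Ptgds, was also the lowest for Vtn.

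For Ptgis the most alike genes were Suox, sulfite oxidase (0.85), Clstn1 (0.83), Hsd17b10, a mitochondrial dehydrogenase (0.83), Nol3 (0.83) and Ctsa, the lysosomal cathepsin A (0.83). Their deviations correlated at 0.63 to 0.73. Without ablation arrays 4 and 6 the correlation with Suox was 0.73 and that with Hsd17b10 was 0.88. The same 2 ablation arrays were the lowest for Suox.

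**Figure D4:**
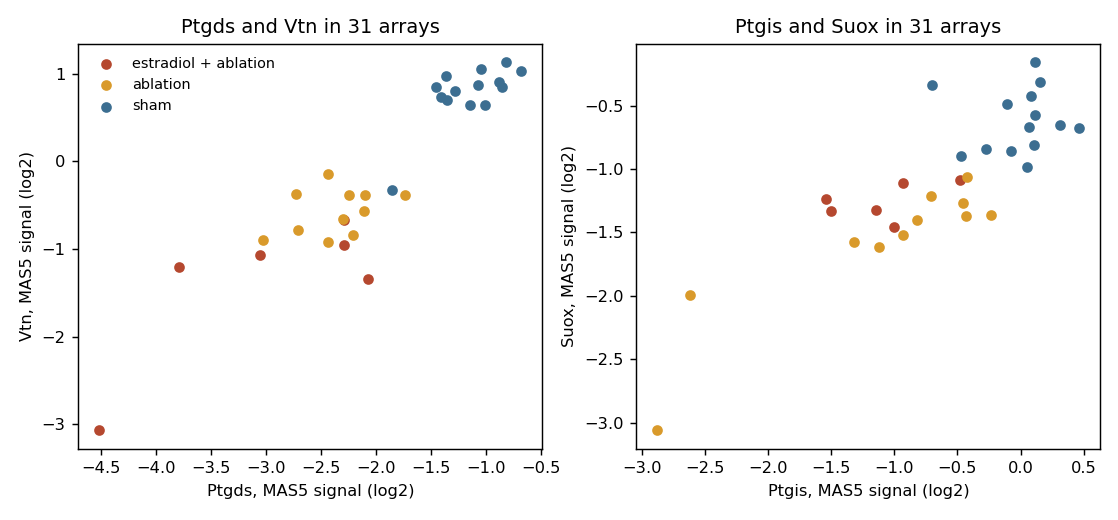
Signal of Vtn against Ptgds (left) and of Suox against Ptgis (right), both axes MAS5 signal on the log2 scale, with 1 dot per array for 31 arrays in 3 treatment groups. Sham array 7 is the one sham dot among the ablation dots on the left, and ablation arrays 4 and 6 are the 2 lowest dots on the right.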

How the data were processed

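Total RNA of rat testes was measured on 31 Affymetrix arrays, and per the submitters' processing notes the authors made the deposited values, read here as log2 signals, with MAS5. The base, the scaling value and the MAS5 version are not given in the sources used here, and values within an array span 15.8 to 19.3 units. The 6 estradiol arrays were deposited with 2 decimals and without control values. Array medians lay between -1.44 and -1.24. No further normalization was applied.

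Of 31099 probe sets 57 controls were left out, and 21269 exceeded the 40th percentile of their array on at least 6 arrays. Names came from the platform annotation, updated by Entrez number in RefSeq's table (20758 matched). Of 31042 probe sets, 20826 had 1 symbol, 436 several and 9780 none. Changes were tested with limma 3.58.1 in R 4.3.3, all 3 groups in 1 fit, with a variance trend and Benjamini-Hochberg adjustment over all kept probe sets. The script was tested on simulated data. The number of arrays limits the precision, and arrays are biological replicates per the labels. No arrays held identical values, and the highest correlation of 465 pairs was 0.974. The members and lists were chosen with earlier results of these data known. Named genes are the members, up to 4 called genes with the smallest adjusted p of each list and comparison, and the 5 genes most correlated with a member. Further list genes are named to complete a list, after their values were seen. Alternatives were other filters, scalings, fits, sham subsets and left-out arrays.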

Additional observations from a re-analysis of the deposited data

Results flagged for a closer look

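In the 6 estradiol arrays 22 sets of values, those of the 8 member probe sets and of 14 pathway genes, were checked for an array far from the others, and 2 had one past Dixon's limit, a gap to the nearest array of over 0.625 of the group's range. Chance flags about 1 in 20 such groups. Pla2g12a was at -4.49 on estradiol array 6, with the nearest array at -1.77. Without that array its change in estradiol plus ablation against sham was -0.70 in place of -1.24 and no longer passed (adjusted p = 0.0759). Prxl2b was at -0.79 on estradiol array 2, with the nearest array at -1.54. No member gene had such an array in the estradiol group. The ablation and sham groups were not checked in this way.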

How the results depend on the processing

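Ptgds kept its direction and its calls against sham in all 13 alternative fits, with changes between -1.25 and -0.66 for ablation and between -1.93 and -0.72 for estradiol plus ablation, the smaller ones with low values raised to the filter level. Ptgis kept its call with ablation in all 14. Against sham with estradiol it lost it with the sham arrays described as irradiated alone (-1.21, adjusted p = 0.0511), so that 1 member was called there. At the 60th percentile only Ptgis of the members was tested, and 1 member was called in either comparison with sham. Ptgs1 passed in estradiol plus ablation against sham without a variance trend (-0.47), and with single arrays left out it ranged from -0.58 to -0.35 and 2 to 3 members were called.

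Changes near 0 turned sign. In ablation against sham, Hpgds was 0.0567 and Ptges 0.0347 with the irradiated-described sham arrays. In estradiol plus ablation against ablation, Ptgis was 0.0291 after quantile normalization, 0.0315 after median centring, 0.257 with the replicate block and 0.0351 without the 4 extreme arrays of the first principal component (single arrays left out -0.191 to 0.0758), and Hpgds was -0.0246 by robust regression (single arrays left out -0.0921 to 0.108). In estradiol plus ablation against sham, Hpgds was 0.0823 with the irradiated-described sham arrays (single arrays left out -0.156 to 0.0445), and Ptges was -0.15 as the mean of its probe sets, -0.0382 by robust regression and -0.35 by its second probe set (single arrays left out -0.0227 to 0.107). None of these was called, and the cause was not tested.

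Replicate numbers did not pair ablation with sham (same-numbered deviations correlated at -0.09 to 0.05) or estradiol with ablation (-0.18 to 0.06). For estradiol and sham (-0.01 to 0.38, 3 of 6 best with own number) pairing is unsettled. With the number as a replicate block, 2747, 596 and 2022 probe sets were called, against 4128, 1173 and 3093 without it, and no member changed its call. Of the pathway genes, the block removed the calls of Lta4h, Ltc4s and Alox5ap with ablation and of Lta4h and Slco2a1 in estradiol against sham, where it added Pla2g4b (-0.56, adjusted p = 0.0398). With the irradiated-described sham arrays alone, 2345 (ablation) and 1702 (estradiol plus ablation) were called against sham, and 8 pathway genes in place of 14 with ablation. Quantile normalization, centring and robust regression each added Pla2g5 (0.34, 0.34 and 0.28) to estradiol against ablation, giving 2 pathway genes, and quantile normalization also called Ptges3 and Ptgr1 as higher in estradiol against sham (0.27 and 0.35). Pla2g1b was called higher there with the replicate block (1.09, adjusted p = 0.0394) and by robust regression (0.54, adjusted p = 0.0093), and with ablation by robust regression (0.51, adjusted p = 0.00319). Robust regression also called Pla2g5 (-0.24) and Hpgd (-0.34) lower in estradiol against sham. Quantile normalization turned the balance of all calls with ablation to 2652 higher and 2355 lower, against 1947 and 2181. The fits without germ cell RNA or extreme arrays, the robust fits, the second probe set and the pathway counts were chosen after seeing the data. Signals under the filter level limit Ptgs1, Ptgs2 and, outside sham arrays, Ptgds.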

Other observations

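The remaining members had weaker likeness to other genes. Over the 31 arrays Hpgds was most like Slc44a4 (Pearson correlation 0.69) and Sp140, a nuclear protein of immune cells (0.63), with changes with ablation of 0.05 for Slc44a4 and -0.16 for Sp140. Ptgs1 was most like Pepd, a dipeptidase (0.69), and its list also held Casp1, an inflammatory protease (0.66), and B2m, the light chain of class I molecules (0.65). The correlation with Adam19 (0.63) was 0.35 without estradiol arrays 1 and 5. Ptges was most like Ldhd (0.62), or 0.57 without sham arrays 3 and 14.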
